A study of Homo sapiens with 6 samples.

Results

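The genes described here encode parts of the inhibin and activin system and a related growth factor: the inhibin alpha subunit gene INHA, the activin beta subunit genes INHBA and INHBB, the activin-binding proteins FST and FSTL3, the activin receptors ACVR1B and ACVR2A, the co-receptor TGFBR3, and BMP4. They were chosen by name. Every probe set that the platform annotation assigns to 1 of these symbols and to no other was taken, which gave 16 of 22215 probe sets for 9 of 11963 named genes. ACVR1B had 6 probe sets, INHBA and FST had 2 each, and the other 6 genes had 1 each.

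RNA of NCI-H295A cells, an established line derived from a carcinoma of the human adrenal cortex, was measured on 6 Affymetrix human expression arrays. In the treated group, 3 plates received 8-Br-cAMP at 1 mM for 18 h, and in the control group 3 plates were kept without it. 8-Br-cAMP is an analogue of cyclic AMP that enters cells and replaces the signal that ACTH gives through its receptor. All plates held the same single line in medium with fetal calf serum, insulin and selenium, so the groups model 1 tumour line and not the normal gland. The design text speaks of 3 separate experiments but ties no plate to one, so p-values reflect how far these plates differed, and part of that may be technical.

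Inhibins and activins are dimers built from a shared set of subunits. An alpha subunit joined to a beta subunit makes an inhibin, and a pair of beta subunits makes an activin. Activins bind a type II receptor such as the ACVR2A product, which recruits and phosphorylates a type I receptor such as the ACVR1B product, and the signal passes on through SMAD2 and SMAD3. Follistatin, from FST, and its relative from FSTL3 bind activins and keep them from their receptors. Betaglycan, the TGFBR3 product, strengthens the binding of inhibin to the type II receptor, which lets inhibin compete with activin. BMP4 signals to SMAD1, SMAD5 and SMAD9. In the adrenal cortex the alpha subunit is produced by steroid-making cells and responds to ACTH, and INHA is widely used as a marker of adrenocortical tumours.

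Promoter windows of RefSeq (build GRCh38.p14), from 250 bases before to 50 bases after an annotated start, were found for all 9 genes, 12 windows in all because ACVR1B has 2 and BMP4 has 3. They were searched on both strands for motifs of cyclic AMP signalling and of the adrenal nuclear receptor SF-1. The 2 windows below belong to the 2 genes that rose in the paired test described further on, and capitals mark every match. The INHA window lies at chr2:219572060-219572359 on the plus strand and the FST window at chr5:53480379-53480678 on the plus strand.

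INHA: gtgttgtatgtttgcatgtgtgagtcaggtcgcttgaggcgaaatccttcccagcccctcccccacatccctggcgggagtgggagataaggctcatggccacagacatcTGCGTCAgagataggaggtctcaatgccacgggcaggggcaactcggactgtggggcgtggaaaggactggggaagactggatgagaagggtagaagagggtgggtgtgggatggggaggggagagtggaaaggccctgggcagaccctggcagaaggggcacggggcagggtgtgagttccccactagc

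FST: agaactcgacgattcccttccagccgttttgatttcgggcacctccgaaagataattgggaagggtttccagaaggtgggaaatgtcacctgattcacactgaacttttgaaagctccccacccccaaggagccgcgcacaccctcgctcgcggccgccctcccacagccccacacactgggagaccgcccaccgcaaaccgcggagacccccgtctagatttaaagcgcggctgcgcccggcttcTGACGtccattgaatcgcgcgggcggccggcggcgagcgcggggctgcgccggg

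In the INHA window the capitals spell TGCGTCA, a variant of the cAMP response element known from inhibin alpha promoters, 140 to 134 bases before the start. That match overlaps a reverse-strand match to the core TGACG. This variant element was present in 1 of the 12 windows, and in 2.47% of all 35116 RefSeq windows of this length. In the FST window the core TGACG begins 4 bases before the start and ends on the first transcribed base. This core was present in the windows of INHA, FST and ACVR2A and in 24.6% of all windows. In ACVR2A it covered bases 25 to 29, counted from 1 at the start, within gttttaTGACGgttgat. The full element TGACGTCA (1.85% of all windows), the SF-1 site CAAGGTCA (1.28%) and the nuclear receptor core AGGTCA (13.8%) were in 0 of the 12 windows. A match describes these letters only and says nothing about binding.

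The arrays numbered 1 stood apart in both groups. The actin control probe sets compare both ends of the transcript and so follow RNA integrity. Their 3'/5' ratio was 38.8 on the 8-Br-cAMP array and 5.72 on the control array with that number, against 1.93 to 2.41 on the other 4 arrays. The number 1 arrays thus also differed from each other in this ratio. A block by sample number, used below, does not remove that difference. The correlation of log2 signals was 0.980 for 8-Br-cAMP 2 with 3 and 0.961 for control 2 with 3, but 0.775 to 0.833 for a number 1 array with the others of its group. Results for the tested probe sets of the 9 genes and for the gene lists are therefore also given without both number 1 arrays. Of 9 measured adrenocortical markers, among them STAR, CYP11A1 and MC2R, 9 lay above the filter level, and their summed signal was 27957.5 to 57197.7 after 8-Br-cAMP and 8222.1 to 27640.1 in control. Of the endothelial markers 2 of 5 lay above that level (VWF and PECAM1), with summed signals of 304.7 to 419.4 after 8-Br-cAMP and 183.4 to 231.4 in control, while CDH5, KDR and TEK lay below it. The part of that marker shift in the results was not tested. Fibroblast markers (2 of 5), adrenal medulla markers (1 of 5) and leukocyte markers (0 of 3) had summed signals that overlapped between the groups.

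Signals are GCOS intensities on a linear scale, and a probe set was tested when its mean log2 signal over the 6 arrays exceeded 5.51, which is a signal of 45.5. Of the 16 probe sets 8 passed this filter, and they stand for 6 genes: INHA, FST (2 probe sets), TGFBR3, BMP4, ACVR2A and ACVR1B (2 of its 6). INHBA, INHBB and FSTL3 had no probe set above the level. Limma without a block called 0 of the 8 and 0 of all 13329 probe sets (0%) at an adjusted p under 0.05. At an unadjusted p under 0.05 there were 4 of the 8, against 11.1% of all, and the unmoderated test called 1 of all probe sets and 0 of the 8. A fit that takes the sample number as a block, called the paired fit here, found that 2 of the 8 rose and 1 fell, where 3.21% of all probe sets passed (1.55% rose and 1.66% fell). At an unadjusted p under 0.05 it had 6 of the 8, against 21.3% of all. The 3 were INHA, 1 of the 2 FST probe sets, and BMP4. With both number 1 arrays left out and no block, 4 of the 8 rose and 1 fell, where 30.8% of all probe sets passed (12.1% rose and 18.7% fell). With no filter on low signals the paired fit called 4 of the 16, namely INHA, FST 204948_s_at, TGFBR3 and BMP4, against 1.82% of all 22215, and limma without the block called 0 of the 16 and 0%. The groups did not overlap for 5 of the 8 (3 higher, 2 lower), against 18.5% of all probe sets (6.02% higher, 12.5% lower). Adjusted p-values below are limma's, over all tested probe sets.

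**Figure D1:**
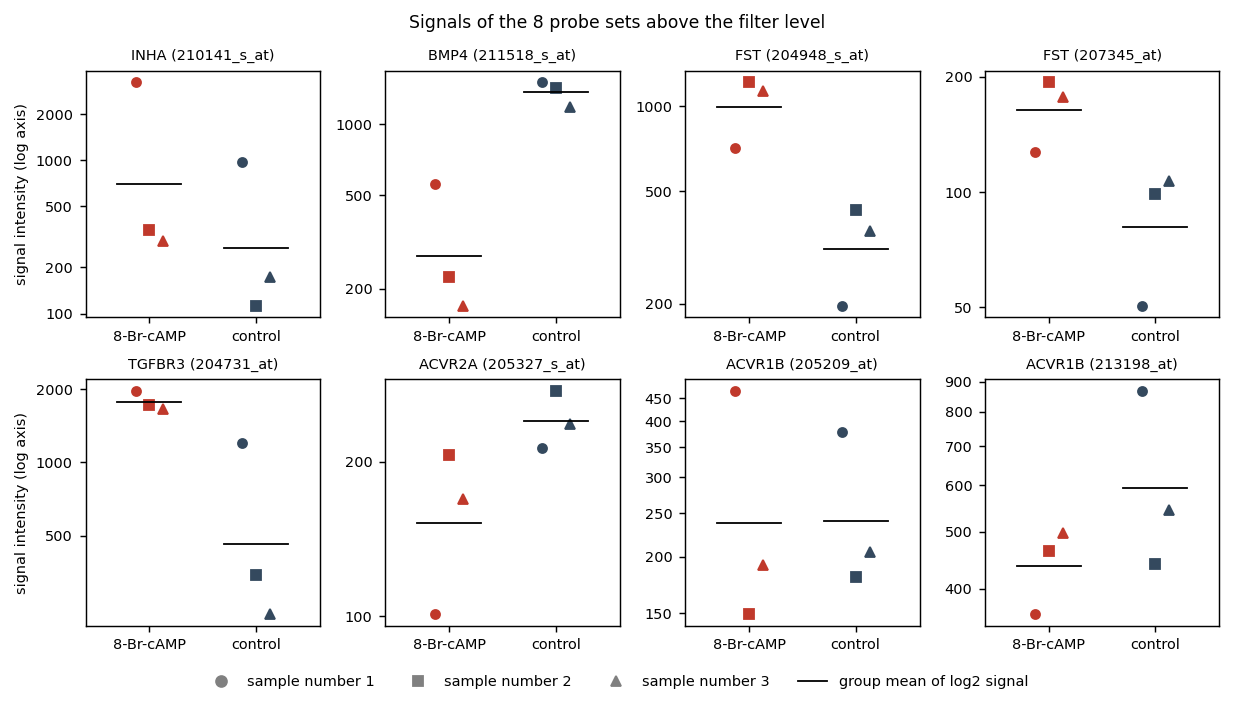
Signal intensity (log axis, a separate scale for each panel) of the 8 probe sets above the filter level in 8-Br-cAMP and control cells, with 1 point per array, its shape giving the sample number, and a bar at the group mean of log2 signals. FST and TGFBR3 lay higher in every 8-Br-cAMP array than in any control array, BMP4 and ACVR2A lay lower, and INHA overlapped because its number 1 arrays, at 3249.8 and 975.6, were far above the others of their groups.

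INHA, the subunit that makes a dimer an inhibin, was higher after 8-Br-cAMP in each of the 3 pairs. Its signals were 3249.8, 352.2 and 299.5 on 8-Br-cAMP arrays 1, 2 and 3, and 975.6, 112.5 and 173.5 on control arrays 1, 2 and 3. The groups overlapped, since control 1 exceeded 8-Br-cAMP 2 and 3. Within pairs the signal was 3.33, 3.13 and 1.73 times that of the control. The mean log2 signal was 9.45 ± 1.92 after 8-Br-cAMP and 8.06 ± 1.65 in control (SD, n = 3 each). The log2 difference was 1.39, or 2.62-fold, with an SE of 1.11 and an adjusted p of 0.731 without the block. In the paired fit the SE was 0.25, the 95% interval 0.78 to 2.00 and the adjusted p 0.0450, so INHA rose there by a small margin. The value left by arrays 2 and 3 alone was 1.22 (SE 0.23, adjusted p = 0.00545). The number 1 array stood above the mean of the other 2 arrays by 3.32 on the log2 scale after 8-Br-cAMP and by 2.80 in control, which is larger than the difference between the groups. The unblocked difference was 0.28 without 8-Br-cAMP 1, 0.77 without control 2 and 2.32 without control 1, and none of these passed the threshold. Over the paired fit and its 8 variations the call held in 6, and it was lost without pair 2 (1.26, adjusted p = 0.0923), with a common median (1.62, adjusted p = 0.0593) and on the spike-in scale (1.02, adjusted p = 0.0556).

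The beta subunit genes INHBA and INHBB gave signals near the lower end of the arrays, and neither had a probe set above the filter level. INHBA, the activin A subunit gene, has 2 probe sets that went different ways. Probe set 210511_s_at gave 4.2, 38.9 and 80.2 on 8-Br-cAMP arrays 1, 2 and 3, and 2.2, 2.6 and 1.7 on the control arrays. All 3 treated values lay above the control values, and 1 of the 6 signals, on 8-Br-cAMP 3, exceeded the filter level. Tested with no filter, its log2 difference was 3.47 (SE 1.08), with an adjusted p of 0.375 without the block and 0.145 with it. Folds from signals this low are imprecise. Probe set 204926_at gave 13.8, 16.8 and 36.9 after 8-Br-cAMP and 25, 33.5 and 33.8 in control, with overlap and a log2 difference of -0.58 (SE 0.60, adjusted p = 0.884 without filter or block). INHBB, the activin B subunit gene, gave 24, 6.7 and 19.4 after 8-Br-cAMP and 6.7, 24.1 and 8.5 in control. Its pairs differed by 1.84, -1.85 and 1.19 on the log2 scale, with no common direction.

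BMP4, a bone morphogenetic protein, was lower after 8-Br-cAMP in each pair. Its signals were 557, 223.4 and 169.1 on 8-Br-cAMP arrays 1, 2 and 3, and 1517.6, 1424.6 and 1188.7 on the control arrays. The groups did not overlap, and the highest treated signal was under the lowest control signal. The mean log2 signal was 8.11 ± 0.90 after 8-Br-cAMP and 10.42 ± 0.18 in control (SD, n = 3 each). The log2 difference was -2.31, with an SE of 0.45 and an adjusted p of 0.127 without the block. In the paired fit BMP4 fell (SE 0.30, 95% interval -3.04 to -1.58, adjusted p = 0.0198), which is a 4.96-fold lower signal. By size it ranked 43 among the falls of all 13329 probe sets. The pairs differed by -1.45, -2.67 and -2.81, and without both number 1 arrays the difference was -2.74 (adjusted p = 2.59e-05). The call held in all 9 versions of the paired fit, with log2 differences of -2.74 to -2.06. Leaving out 8-Br-cAMP 1 alone, without a block, gave -2.82 (adjusted p = 0.0204).

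FST, the follistatin gene, was higher after 8-Br-cAMP with both of its probe sets. Probe set 204948_s_at gave 710.7, 1219.8 and 1132.9 on 8-Br-cAMP arrays 1, 2 and 3, and 196.7, 428.8 and 361.8 on the control arrays. Every treated signal exceeded every control signal, and within pairs it was 3.61, 2.84 and 3.13 times that of the control. The pairs agreed more closely here than for any other tested probe set of these genes. The mean log2 signal was 9.96 ± 0.42 after 8-Br-cAMP and 8.29 ± 0.59 in control (SD, n = 3 each). The log2 difference was 1.67, or 3.18-fold, with an SE of 0.38 and an adjusted p of 0.176 without the block, and an SE of 0.20 and an adjusted p of 0.0145 in the paired fit. Arrays 2 and 3 alone gave 1.58 (adjusted p = 0.000101), and the call held in all 9 versions of the paired fit (1.30 to 1.89). Probe set 207345_at was dimmer, at 127.4, 194.1 and 176.8 after 8-Br-cAMP and 50.5, 99 and 106.7 in control, again with no overlap. Its log2 difference was 1.01 (SE 0.27 in the paired fit), with an adjusted p of 0.0968, which did not pass, and 0.387 without the block. Arrays 2 and 3 alone gave 0.85 (adjusted p = 0.0134). The number 1 arrays had the lowest FST signal of each group with both probe sets, where they had the highest INHA signal.

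FSTL3, whose product is a follistatin-like activin inhibitor, stayed under the filter level. It gave 82.3, 42.1 and 29.4 on 8-Br-cAMP arrays 1, 2 and 3, and 33.5, 35.7 and 32.4 in control. The treated values surrounded the control values, and the pairs differed by 1.30, 0.24 and -0.14 on the log2 scale. With no filter the adjusted p was 0.904 without the block and 0.757 with it.

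TGFBR3, which encodes the inhibin co-receptor betaglycan, was higher on every 8-Br-cAMP array than on any control array. Its signals were 1974.5, 1715 and 1660.6 after 8-Br-cAMP, and 1203.9, 345.3 and 236.8 in control. The treated arrays were close together and the control arrays were not, because control 1 lay 2.07 above the mean of control 2 and 3 on the log2 scale. The mean log2 signal was 10.80 ± 0.13 after 8-Br-cAMP and 8.85 ± 1.23 in control (SD, n = 3 each). The log2 difference of 1.95, or 3.85-fold, did not pass in either fit (SE 0.57 and adjusted p = 0.272 without the block, SE 0.39, 95% interval 1.01 to 2.88 and adjusted p = 0.0539 in the paired fit). Pair 1 differed by 0.71, and pairs 2 and 3 by 2.31 and 2.81. The probe set passed without control 1 and no block (2.64, adjusted p = 0.0329) and without both number 1 arrays (2.56, adjusted p = 4.01e-05). In the paired fit it passed in 5 of 9 versions, namely with no filter, with a pseudocount of 16 and with any 1 of the 3 pairs left out. It missed the threshold as deposited and under the 3 other scalings, with adjusted p-values of 0.0539 to 0.0974.

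The activin receptors themselves showed smaller differences, and neither passed. ACVR2A, a type II receptor, gave 100.9, 206.2 and 169.5 after 8-Br-cAMP and 212.5, 274.7 and 236.7 in control. The treated signals all lay below the control signals. Its log2 difference was -0.66 (paired 95% interval -1.24 to -0.08), with an adjusted p of 0.191 in the paired fit and 0.539 without the block, and it was -0.45 without both number 1 arrays (adjusted p = 0.0920). ACVR1B, a type I receptor, had 2 tested probe sets, and both overlapped between the groups. Probe set 213198_at gave 362, 464.6 and 498.5 after 8-Br-cAMP and 869.7, 440.7 and 544.1 in control (log2 difference -0.44, paired 95% interval -1.15 to 0.28, adjusted p = 0.448). Its difference on arrays 2 and 3 alone was -0.03. Probe set 205209_at gave 467.7, 148.9 and 192.2 after 8-Br-cAMP and 378.1, 180 and 204.7 in control (-0.02, paired 95% interval -0.56 to 0.52, adjusted p = 0.975), and -0.18 on arrays 2 and 3 alone (adjusted p = 0.510). The sign of this value turned under other scalings, so no direction is given. The other 4 ACVR1B probe sets lay under the filter level, with signals of 3.9 to 45.3 after 8-Br-cAMP and 4.3 to 65.4 in control, and overlapped.

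**Figure D2:**
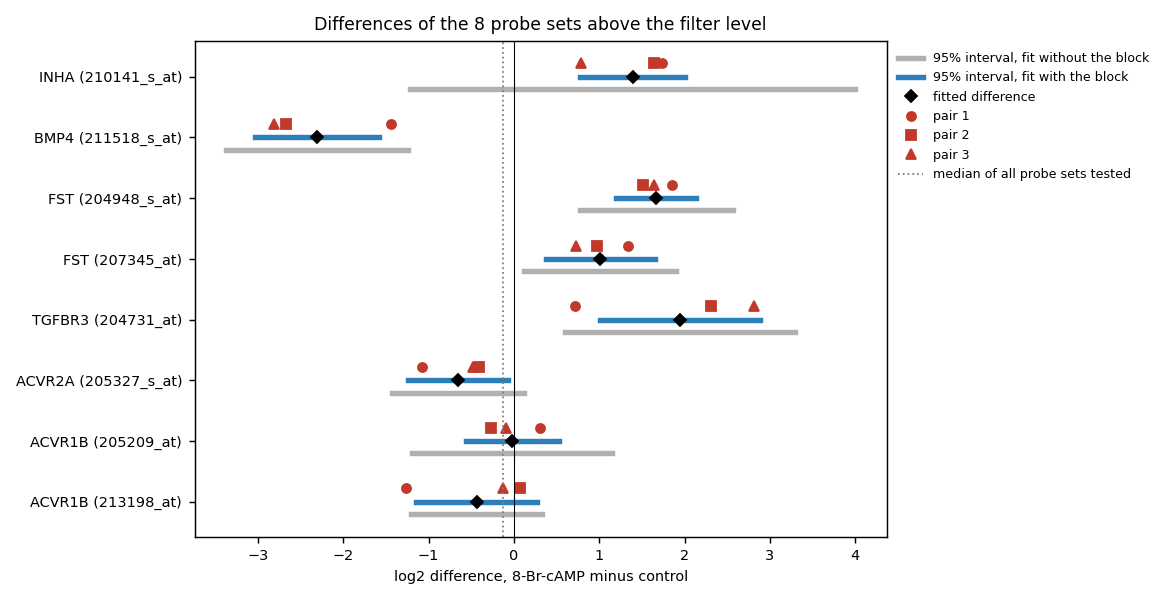
Log2 difference (8-Br-cAMP minus control, horizontal axis) of the 8 tested probe sets, with diamonds for the fitted value, bars for the 95% interval with and without the replicate block, and coloured points for the 3 same-numbered pairs. The dotted line marks the median of all tested probe sets, -0.13. The pairs of FST 204948_s_at lay within 1.51 to 1.85, while those of TGFBR3 ran from 0.71 to 2.81.

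**Figure D3:**
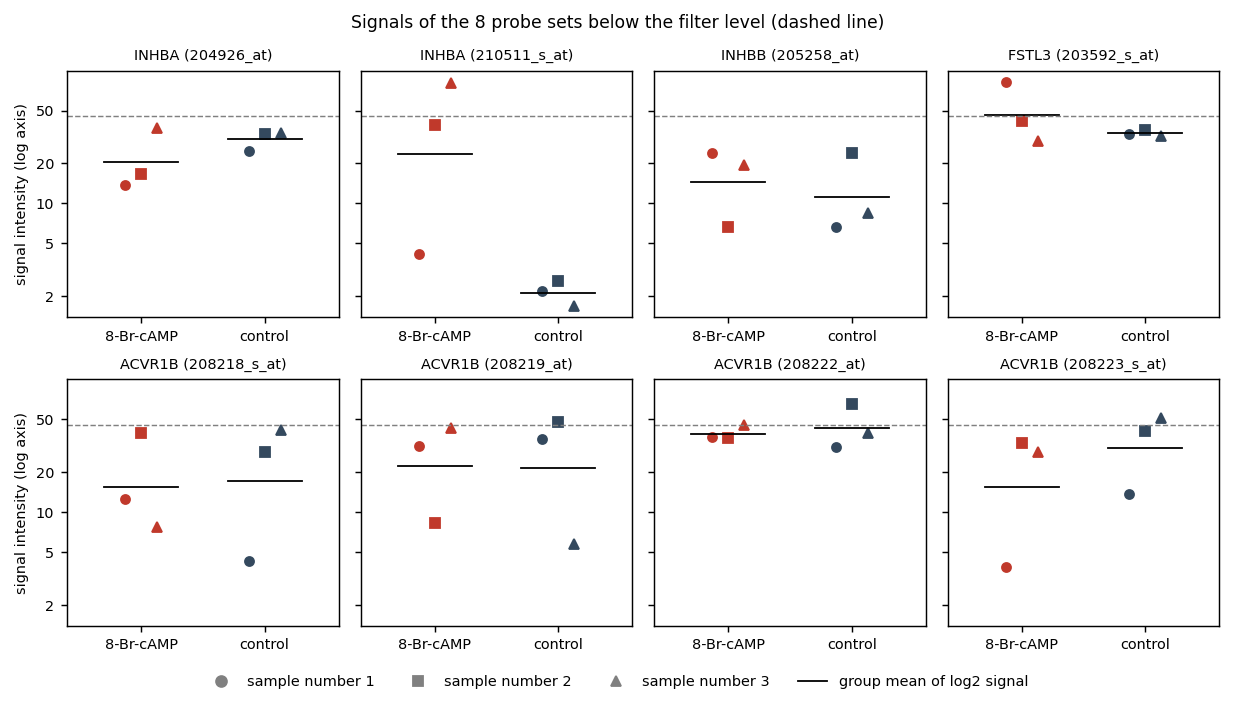
Signal intensity (log axis, shared by all panels) of the 8 probe sets below the filter level, drawn as a dashed line at 45.5, in 8-Br-cAMP and control cells, with 1 point per array and a bar at the group mean of log2 signals. INHBA 210511_s_at is the panel in which the groups part, at 4.2 to 80.2 after 8-Br-cAMP and 1.7 to 2.6 in control.

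A log2 difference between 2 probe sets on the same array does not depend on how the array was scaled. Only changes of such a difference between groups are read here, not the level of one gene against another. Ratios with INHBA or INHBB could not be formed, because these genes had no tested probe set, which left 1 of 5 planned ratios, and 3 others were added after the data were seen. BMP4 minus FST was -0.35, -2.45 and -2.74 on 8-Br-cAMP arrays 1, 2 and 3, and 2.95, 1.73 and 1.72 in control. The groups did not overlap, and the change was -3.98. The exact two-sided permutation p was 0.1, the smallest that 3 against 3 arrays allow, and 0.2 after Benjamini-Hochberg adjustment over 4 ratios. BMP4 was lower and FST higher without overlap, so this separation was fixed in advance and adds nothing to those results. INHA minus BMP4, added later, was 2.54, 0.66 and 0.82 after 8-Br-cAMP and -0.64, -3.66 and -2.78 in control, a change of 3.70 with the same exact p of 0.1. INHA minus FST changed by -0.28 and TGFBR3 minus INHA by 0.56 (exact permutation p = 0.8 for each), both with overlap. On arrays 2 and 3 alone the changes were -4.32 for BMP4 minus FST, 3.96 for INHA minus BMP4, -0.36 for INHA minus FST and 1.34 for TGFBR3 minus INHA. No ratio could reach an exact p under 0.05 in this design.

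The genes most like INHA, FST and BMP4 across the 6 arrays, by Pearson correlation of log2 signals over the tested genes, were taken as a description with no test. The 6 arrays share their group and their sample number, and both shape these correlations. INHA was most like WFS1 (r = 0.999), SLC52A2 (0.996) and ZC3H7B (0.994), and all 3 had their highest signal of each group on the number 1 array. WFS1, for example, gave 533.8, 247.1 and 231.8 after 8-Br-cAMP and 359.6, 155.7 and 189 in control. FST was most like PVR (r = 0.993), SORBS2 (0.993) and CUX1 (0.992). PVR gave 323.2, 419.8 and 403 after 8-Br-cAMP and 114.9, 190.2 and 165.7 in control, with no overlap. BMP4 was most like NREP (r = 0.994), MGAT4B (0.993) and AKR1C1 (0.993), and NREP gave 807.7, 348.7 and 326.9 after 8-Br-cAMP and 1799.4, 1996.6 and 1792.9 in control.

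Around these genes, 5 lists of other genes of TGF-beta superfamily signalling were read from the same fits, with 1 probe set per gene. Besides ligands they hold receptors, SMADs and their regulators, extracellular antagonists and processing genes, and SMAD target genes. Of 89 listed genes 77 were on the array under 1 symbol and 44 were tested. In the paired fit 3 rose and 2 fell, which is 11.4% of 44 against 3.68% of all 7926 tested genes (1.73% rose and 1.96% fell), while limma without the block called 0 of the 44. Without both number 1 arrays 9 rose and 16 fell, where 33.3% of all genes passed (12.8% rose and 20.5% fell). The median log2 difference was -0.20 over the 44 genes and -0.14 over all tested genes.

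Among 13 tested ligands 1 rose and 1 fell in the paired fit, against 1.73% and 1.96% of all genes. GDF15, a stress-induced secreted member of the superfamily, gave 785.1, 9593.6 and 9413.5 on 8-Br-cAMP arrays 1, 2 and 3, and 52.3, 1699.3 and 1982.9 in control. It was far lower on the number 1 arrays of both groups, so the groups overlapped, and it was higher after 8-Br-cAMP in each pair. Its log2 difference was 2.88, or 7.38-fold (SE 0.33, paired adjusted p = 0.0144, and 0.576 without the block), from a probe set whose name ends in x_at, a class whose probes can match other transcripts. INHBE, which encodes the activin beta E subunit and is known chiefly from liver, gave 31.8, 814.6 and 891.4 after 8-Br-cAMP and 69.6, 3406.6 and 3976.8 in control. It fell in the paired fit, with a log2 difference of -1.78 (SE 0.26, adjusted p = 0.0261, and 0.812 without the block). The number 1 arrays of both groups were again the lowest, and the groups overlapped. The ligand list had a median of -0.07. On arrays 2 and 3 alone 3 of the 13 ligands rose and 3 fell, where 12.8% of all genes rose and 20.5% fell. The ligand median there was -0.28 against -0.18 over all genes.

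Among 4 tested receptors 0 passed in the paired fit, and the list's median was -0.32. TGFBR2, the type II receptor for TGF-beta, differed by -0.60 (adjusted p = 0.186) and BMPR2, a type II receptor for bone morphogenetic proteins, by -0.50 (adjusted p = 0.487). On arrays 2 and 3 alone 0 of the 4 rose and 1 fell, against 12.8% and 20.5% of all genes, with a median of -0.25. That was TGFBR2, at -0.50 (adjusted p = 0.0460), while BMPR2 differed by -0.76 (adjusted p = 0.137). Among 13 SMADs and SMAD regulators 0 passed in the paired fit, with a median of -0.29. The inhibitory SMAD7 gave 51.5, 79.1 and 109.3 after 8-Br-cAMP and 116.4, 210.2 and 236 in control, with no overlap, and its difference of -1.23 had a paired adjusted p of 0.0554. TGIF1, a co-repressor of SMAD-driven transcription, differed by 1.46 (paired adjusted p = 0.0785). On arrays 2 and 3 alone 4 of these 13 genes rose and 4 fell, beside the same shares of all genes, with a median of -0.17. TGIF1 rose there by 1.97 (adjusted p = 2.68e-05) and SMAD7 differed by -1.26 (adjusted p = 0.00436).

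Of 9 extracellular antagonists and processing genes 1 fell in the paired fit and 0 rose, against 1.96% and 1.73% of all genes. The median of the list was -0.68. FSTL1, a secreted glycoprotein related to follistatin, gave 2571.9, 971 and 939.6 after 8-Br-cAMP and 5143.9, 2187.2 and 2040.2 in control. It was 2.14-fold lower (log2 difference -1.10, SE 0.17, paired adjusted p = 0.0297, and 0.506 without the block). FSTL1 was lower in each of the 3 pairs, but the groups overlapped, since 8-Br-cAMP 1 exceeded control 2 and 3. LTBP3, which encodes a latent TGF-beta binding protein, differed by -1.06 (paired adjusted p = 0.0812), and by -1.29 on arrays 2 and 3 alone (adjusted p = 0.0302). On arrays 2 and 3 alone 6 of the 9 fell and 0 rose, where 20.5% of all genes fell and 12.8% rose. The median of the list there was -1.15 against -0.18 over all genes. Of 5 tested SMAD target genes 2 rose in the paired fit and 0 fell, against 1.73% and 1.96% of all genes, with a median of 0.21. On arrays 2 and 3 alone 2 rose and 2 fell, with a median of 0.26, and the falls were those of ID2 (-0.44, adjusted p = 0.0266) and MSX1 (-1.02, adjusted p = 0.00357), which were named after their values were seen. CDKN1A, the gene of the cell cycle inhibitor p21, gave 753.3, 949.3 and 907.5 after 8-Br-cAMP and 193.1, 201.5 and 180.5 in control, or 4.52-fold (log2 difference 2.18, paired adjusted p = 0.0106, and 0.0511 without the block). JUNB, a component of the AP-1 transcription factor, gave 683.7, 627.4 and 434.7 after 8-Br-cAMP and 225.1, 234.2 and 209.9 in control, or 2.56-fold (1.36, paired adjusted p = 0.0308, and 0.132 without the block). Both genes also respond to many signals outside this pathway. The 5 genes that passed in the paired fit kept their direction on arrays 2 and 3 alone, where the log2 difference was 2.37 for GDF15, -2.11 for INHBE, -1.15 for FSTL1, 2.28 for CDKN1A and 1.24 for JUNB.

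**Figure D4:**
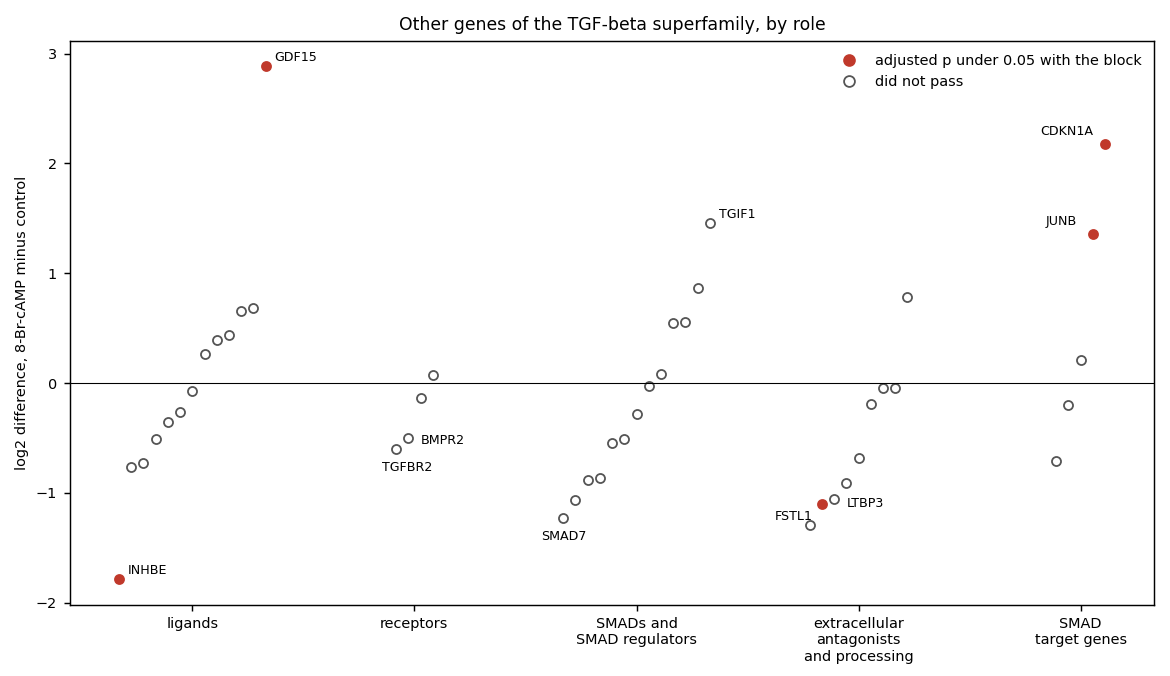
Log2 difference (8-Br-cAMP minus control, vertical axis) of 44 other genes of TGF-beta superfamily signalling, 1 point per gene, in 5 groups by role and ordered by size within each. Filled points passed in the paired fit: GDF15, CDKN1A and JUNB were higher, and INHBE and FSTL1 lower.

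A signal from a plate cannot tell fewer cells that make a transcript from less transcript per cell, and the calls named as paired rest on the block.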

How the data were processed

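RNA of 3 8-Br-cAMP and 3 control plates of NCI-H295A cells was labelled and hybridised to 1 array each, and the number of arrays limits the precision. The values the authors deposited are linear signal intensities, and the software named in the submitters' processing notes is GCOS 1.3. Groups and sample numbers come from the sample titles. The 2% trimmed means of the deposited columns lay between 249.996 and 250.155, so no further scaling was applied. Of 22277 probe sets 62 are array controls. In GEO's platform annotation 19064 of the other 22215 have 1 symbol and 1043 have several, and 2108 are not listed. The RefSeq gene table held the gene ID of 19052 with 1 symbol.

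Signals under 1 were set to 1 and taken to log2. Probe sets above the 40th percentile of mean log2 signal were tested with limma 3.58.1 in R 4.3.3 (lmFit, eBayes with an intensity trend), two-sided, with Benjamini-Hochberg adjustment over 13329 probe sets and a threshold of 0.05. The main design has no block, and the fit with the sample number as a block is the alternative. After each group's mean was subtracted, the 2 arrays of a number correlated at 0.603, 0.378 and 0.538 for numbers 1, 2 and 3. All exceed 0.1, and the samples were treated as paired on that ground. The pairing thus comes from the data. The crossed combinations of numbers 2 and 3 also exceeded 0.1, at 0.547 for control 3 with 8-Br-cAMP 2 and 0.313 for control 2 with 8-Br-cAMP 3. Where a number 1 array stands apart, subtracting the group's mean moves arrays 2 and 3 the same way. This check can therefore link the number 1 arrays but cannot tell how arrays 2 and 3 pair. Named are all probe sets of the 9 genes. From each list are named the genes that passed and the 2 with the smallest paired p, and for INHA, FST and BMP4 the 3 genes most like each. For a gene list the tested probe set with the highest mean stands for the gene. The genes, lists, motifs and tests were chosen with earlier results of these data known. The fits were tested on simulated arrays with known changes. Those arrays were built with the sample-number effects of these data, so they cannot show that the block suits the real arrays. No protein sequences were used here.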

Additional observations from a re-analysis of the deposited data

How the results depend on the processing

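Without the block, limma called 0% of all tested probe sets, 0 of the 8 probe sets described and 0 of the 44 pathway genes. Other settings without the block gave, in the same order, 0.128%, 0 and 1 with quantile normalization and with a common median alike, 0.105%, 0 and 0 on the spike-in scale, 0.203%, 0 and 1 with a filter at the 60th percentile, 0.210%, 0 and 1 with a pseudocount of 16 and with a floor at the 20th percentile alike, and 0.00750%, 0 and 0 with the unmoderated test. Testing with no filter, or with eBayes without a trend, left all 3 at 0. Leaving out 1 array at a time gave 0% to 2.14%, 0 or 1 of the 8, and 0 to 3 pathway genes. The highest came without 8-Br-cAMP 1 (2.14%, 1 and 3), then without control 1 (0.435%, 1 and 1). Without both number 1 arrays the values were 30.8%, 5 and 25, and they rest on arrays 2 and 3, which are closely alike in each group. The replicate block gave 3.21%, 3 and 5. Combined with the block, quantile normalization gave 2.52%, 3 and 5, a common median 1.07%, 2 and 3, the spike-in scale 7.98%, 2 and 10, a pseudocount of 16 4.11%, 4 and 6, and no filter 1.82%, 4 and 5. The block with 1 pair left out, added after the data were seen, gave 35.1%, 5 and 27 without pair 1, 2.57%, 3 and 3 without pair 2, and 2.21%, 4 and 4 without pair 3. The median log2 difference of all tested probe sets was -0.13 on the deposited scale, -0.03 under quantile normalization, 0.09 under a common median and -0.50 under spike-in scaling. INHA, both FST probe sets, TGFBR3, BMP4, ACVR2A and ACVR1B 213198_at kept their sign in every setting. ACVR1B 205209_at changed sign. It was 0.16 with quantile normalization and 0.21 with a common median (the same with the block), -0.51 to 0.32 with 1 array left out and no block, and 0.11 and 0.0166 in the paired fit without pairs 2 and 3. INHA minus FST changed sign with the second FST probe set (0.38, exact permutation p = 0.5). The cause of these shifts was not tested. FST 207345_at has no value with the stricter filter, since it lies below it.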
